A study of Homo sapiens with 6 samples.

Results

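Activin, inhibin and receptor transcripts were examined in the RNA-seq libraries of SH-SY5Y cells transfected with a control siRNA (siControl) or an siRNA against PSF (siPSF). PSF is an RNA-binding protein of the nucleus that is encoded by SFPQ. The 10 genes were chosen by gene symbol: the subunit genes INHBA, INHBB and INHBE, the receptor genes ACVR1, ACVR1B, ACVR2A and ACVR2B, and the inhibitor genes FST, FSTL3 and SMAD7. The list was drawn up with results of these libraries known, in particular the low INHBA level after siPSF. The study itself had picked that gene for lower levels after knockdown of PSF, seen in these libraries, and of G3BP2. It reports by qRT-PCR that the picked genes were regulated by both proteins in several neuronal cell lines. For tested target genes it also reports lower mRNA stability after either knockdown, with RNA synthesis blocked, and pre-mRNA bound by both proteins. Because INHBA was picked for its fall, it is described without a p-value, and counts over the list are a description. Of the 10 genes, 9 had a row among the 21301 genes of the deposited table, FST was not analysed here, and 8 were among the 19694 genes with enough reads to be tested.

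SH-SY5Y is an established human neuroblastoma line with neuronal features, and its use limits every value to 1 cell line. Both groups were cultured alike and received 10 nM siRNA for 72 h, the controls siControl and the others siPSF, with 3 libraries a group. A single PSF siRNA was used for the sequencing, so an effect of that siRNA on other transcripts cannot be told apart from the loss of PSF. The libraries held between 101540520 and 132420931 reads counted on genes. SFPQ itself stood at 372, 356 and 401 CPM (a gene's reads as a share of all counted reads, after TMM scaling, and scaled to a fixed library size) after siControl and at 209, 193 and 165 CPM after siPSF, which left 50.2% of the control level. Of 7 noradrenergic neuroblastoma markers such as TH and DBH, 6 exceeded 1 CPM, and 2 were called lower and 1 higher. Their summed level was 3640 to 4161 CPM after siControl, against 3088 to 3644 CPM after siPSF. Of 7 mesenchymal-type neuroblastoma markers with a row, 4 exceeded 1 CPM, and 2 were called lower and none higher. Their sum was 199 to 203 CPM after siControl and did not overlap with the 143 to 192 CPM after siPSF. Of 6 fibroblast and smooth muscle markers, 4 exceeded 1 CPM, and 1 was called lower and none higher. Their sums were 89.3 to 106 CPM after siControl and 80.2 to 126 CPM after siPSF. Of all genes tested, 8.27% were called lower and 6.65% higher, and the CPM of the groups did not overlap for 34.4%. The endothelial and blood markers PECAM1, CDH5, VWF, PTPRC and HBB had no row, and CD68 stood at 2.14 to 2.98 CPM and 2.56 to 3.32 CPM. The part of these marker levels in the results was not tested. In both groups replicate 3 stood farther from the other two libraries than these did from each other, with a chi-square per degree of freedom over genes of 54.4 to 61.2 for pairs with replicate 3, against 33.5 (siControl) and 20.8 (siPSF) for the pairs without it.

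Activins are secreted dimers of inhibin beta subunits, and the gene names INHBA, INHBB and INHBE denote the beta A, beta B and beta E chains. A dimer binds a type II receptor, ACVR2A or ACVR2B, which phosphorylates a type I receptor such as ACVR1B (also called ALK4), and this in turn phosphorylates SMAD2 and SMAD3, which enter the nucleus with SMAD4. ACVR1 (ALK2) is the type I receptor that mainly passes bone morphogenetic protein (BMP) signals to SMAD1, SMAD5 and SMAD9. Follistatin (FST) and follistatin-like 3 (FSTL3) are glycoproteins that bind activin and keep it from its receptors, and SMAD7 is an inhibitory SMAD that blocks type I receptors from inside the cell. In neurons INHBA is known as a gene induced by synaptic activity, and activin A has been studied as a survival factor for them.

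Promoter windows were read for the members with the RefSeq table (GRCh38.p14), which gives 250 bases before and 50 bases after a transcript start. Of the 10 genes, 9 matched an entry, and INHBE did not. The windows are printed for INHBA, ACVR1B and SMAD7, because these are the matched members whose transcript levels moved, and capitals mark the letters GGCGCC, a sequence that SMAD1 and SMAD5 can bind. The INHBA window lies at chr7:41703041-41703340 on the minus strand, the ACVR1B window at chr12:51951449-51951748 on the plus strand and the SMAD7 window at chr18:48950916-48951215 on the minus strand. The INHBA start used by the table lies inside the RefSeq span of the gene, so a further start exists upstream of it.
INHBA: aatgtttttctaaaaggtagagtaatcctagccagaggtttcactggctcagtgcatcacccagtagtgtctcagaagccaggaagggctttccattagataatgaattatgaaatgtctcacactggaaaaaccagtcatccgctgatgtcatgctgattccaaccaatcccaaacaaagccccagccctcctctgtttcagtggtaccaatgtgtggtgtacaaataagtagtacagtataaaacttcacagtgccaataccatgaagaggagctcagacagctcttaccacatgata
ACVR1B: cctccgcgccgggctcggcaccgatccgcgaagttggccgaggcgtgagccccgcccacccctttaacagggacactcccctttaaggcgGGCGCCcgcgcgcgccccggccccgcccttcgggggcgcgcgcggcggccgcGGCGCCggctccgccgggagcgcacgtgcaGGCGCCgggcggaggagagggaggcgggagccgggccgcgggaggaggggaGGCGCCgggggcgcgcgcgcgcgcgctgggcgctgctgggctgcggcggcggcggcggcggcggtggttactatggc
SMAD7: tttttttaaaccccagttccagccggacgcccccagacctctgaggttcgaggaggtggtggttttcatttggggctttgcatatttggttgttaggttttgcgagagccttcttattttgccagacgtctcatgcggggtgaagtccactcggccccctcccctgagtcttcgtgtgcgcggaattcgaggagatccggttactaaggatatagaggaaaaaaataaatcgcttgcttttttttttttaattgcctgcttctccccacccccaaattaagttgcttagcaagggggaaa
The windows differed in base composition. INHBA, at 43.3% GC, and SMAD7, at 48.3% GC, lay below the median of 58.3% over all 27305 promoters of the table, and ACVR1B reached 82.3%. GGCGCC, which reads the same on both strands, occurred 4 times in the ACVR1B window, at 160, 108, 78 and 27 bases before the start, and in neither of the other two windows printed. Over the 9 matched members it occurred in 4 windows, those of INHBB, ACVR1, ACVR1B and FSTL3, and over all promoters in 19.0%. The SMAD-binding palindrome GTCTAGAC (0.201% of all promoters), the cyclic AMP response element TGACGTCA (1.98%), the AP-1 site TGACTCA with its reverse complement TGAGTCA (4.92%) and the ATF4-bound element TGATGCAA (0.923%) were searched on both strands and were found in none of the 9 windows. These matches describe letters in short windows and not occupancy by a factor.

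Of the 7 tested members other than INHBA, 3 passed an adjusted p of 0.05 in edgeR's quasi-likelihood test (Benjamini-Hochberg over all genes tested). The share of all genes tested that passed was 14.9%. INHBE was lower, where 8.27% of all genes were called lower after siPSF. ACVR1B and SMAD7 were higher, where 6.65% were called higher. INHBA was lower too, but it was picked for that fall, so its result is not counted. The CPM of the groups did not overlap for 5 of the 8 members: INHBA, INHBE, ACVR1B, SMAD7 and ACVR1. The groups of 34.4% of all genes tested did not overlap. The members had no common direction, with a median log2 fold change of 0.02 beside 0.01 over all genes tested. In bulk RNA, fewer cells that express a gene and less of its RNA in each cell cannot be told apart.

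**Figure D1:**
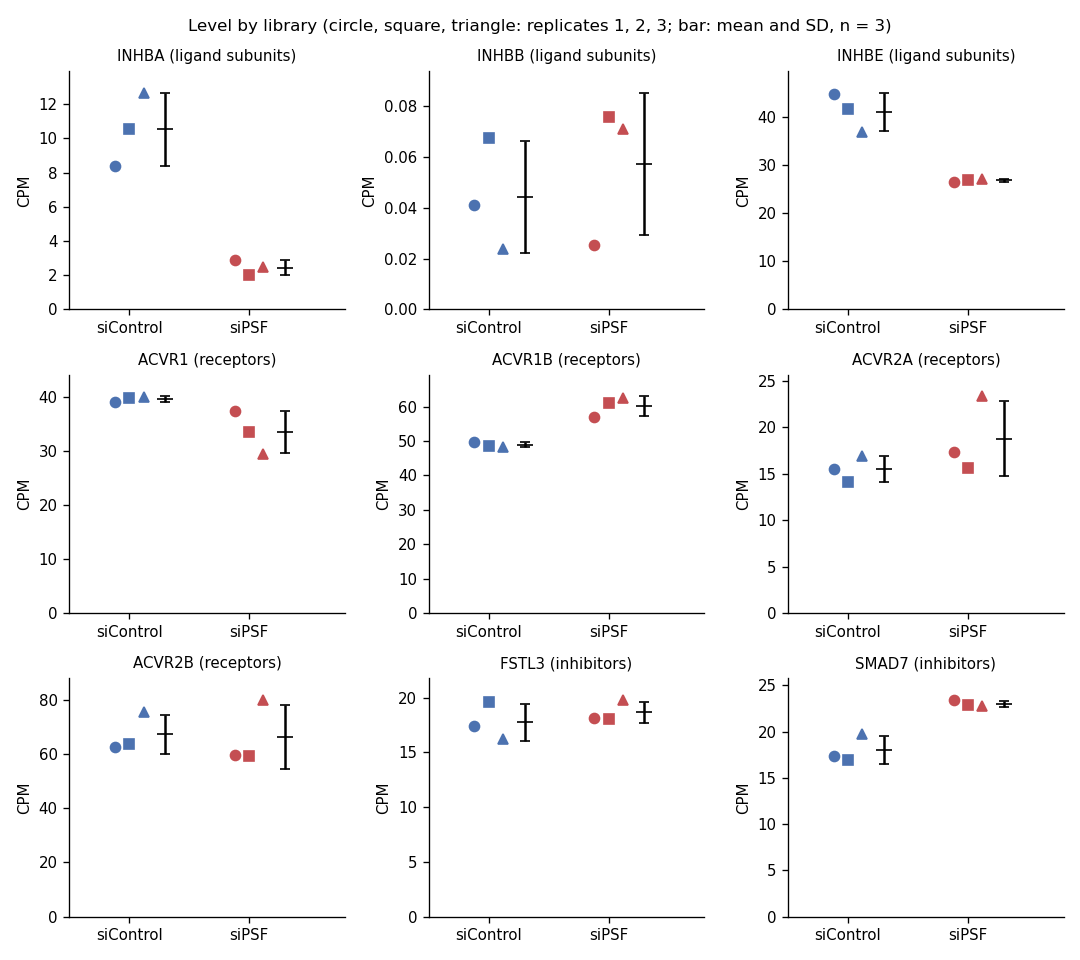
CPM (TMM-scaled, each axis starting at 0) of the 9 members with a row; circles, squares and triangles are replicates 1, 2 and 3 and the bar is the group mean with its SD (n = 3). INHBA goes from a mean of 10.5 CPM after siControl to 2.45 CPM after siPSF, and the points of INHBE are also separate between the groups.

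INHBA (gene ID 3624) encodes the beta A chain, whose dimer is activin A. It lies on the minus strand of chromosome 7 at 41685114 to 41705406 (RefSeq, GRCh38), a gene of 20.3 kb whose canonical transcript has 3 exons. The siControl libraries held 8.37, 10.6 and 12.6 CPM, and those of siPSF held 2.90, 1.99 and 2.45 CPM. Every siPSF library was thus below every siControl library, with a gap between the groups that exceeded the spread within either. The group means were 10.5 ± 2.14 CPM and 2.45 ± 0.453 CPM (SD, n = 3 each). The difference rested on 1018 to 1593 reads per siControl library and 210 to 344 per siPSF library. The log2 fold change was -2.10 (SE 0.18, 95% interval -2.50 to -1.71), so that 23.3% of the control level was left, a 4.30-fold difference. Leaving out any 1 library moved it between -2.25 and -1.95. In the order of all genes tested from the largest fall, INHBA stood at place 34.

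INHBE (gene ID 83729) encodes the beta E chain, a subunit best known from liver. It lies on the plus strand of chromosome 12 at 57455307 to 57458025 and is the shortest member, at 2.72 kb with 2 exons. The siControl libraries gave 44.7, 41.7 and 36.9 CPM and the siPSF libraries 26.5, 26.8 and 27.1 CPM. The siPSF values were nearly equal among themselves and all below the lowest control. INHBE fell from 41.1 ± 3.94 to 26.8 ± 0.341 CPM (± SD, n = 3 each), by a log2 fold change of -0.62 (SE 0.10, 95% interval -0.82 to -0.41, edgeR adjusted p = 0.00141), with 65.3% left. The call held in each of the 12 alternative analyses, including the 6 that left out 1 library. The decrease was smaller than that of INHBA, and the intervals of the 2 genes did not touch, although no test was run between genes.

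INHBB (gene ID 3625, plus strand of chromosome 2, 120346136 to 120351803) encodes the beta B chain of activin B and of inhibin B. It was represented by 5, 9 and 3 reads in the siControl libraries and by 3, 8 and 7 reads in the siPSF libraries, below the minimum for a test. These correspond to at most 0.0758 CPM in any library, and a difference between groups was not detectable at this depth. Beta B transcripts were thus near the detection limit in both groups.

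The beta chains share partners, since they can form homodimers and some mixed dimers, so their amounts were set against each other within each library. For levels of different genes FPKM was used, the length-scaled and depth-scaled fragment value deposited by the authors. INHBE amounted to 13.4, 9.73 and 7.25 times the INHBA level after siControl and to 22.6, 33.2 and 35.9 times after siPSF. These ratios did not overlap between the groups, and the comparison was chosen after the values were seen, so it has no test. The summed FPKM of INHBA, INHBB and INHBE was 18.0, 17.2 and 16.3 after siControl and 10.0, 9.87 and 9.96 after siPSF, a decrease from a mean of 17.1 ± 0.825 to 9.95 ± 0.0795 (SD, n = 3 each). INHBE made up 87.8% to 93.0% of that sum after siControl and 95.7% to 97.1% after siPSF. Most of the decrease in the sum was therefore INHBE, although INHBA decreased more in proportion. The INHBA to INHBB ratio rested on the few INHBB reads above and is not given.

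The FPKM column of INHBA depended on more than its reads. FPKM and count were related by a factor that varied 1.33-fold between libraries for INHBA, with the third siPSF library apart from the rest, and 1.01-fold to 1.07-fold for the other members tested. INHBA stood at 1.25, 1.60 and 1.98 FPKM after siControl and at 0.424, 0.288 and 0.270 FPKM after siPSF. The groups were thus separate on this scale too. The same factor enters the FPKM ratio of INHBE to INHBA, which was highest in the third siPSF library. On CPM that ratio was 5.34, 3.95 and 2.91 after siControl, against 9.13, 13.5 and 11.1 after siPSF, without overlap.

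ACVR1B (gene ID 91), the type I receptor of activin, lies on the plus strand of chromosome 12 at 51951699 to 51997078 (45.4 kb, 9 exons). It gave 49.7, 48.5 and 48.4 CPM after siControl, against 56.9, 61.0 and 62.4 CPM after siPSF. All siPSF libraries were above all controls, with tight groups. The gene rose from 48.9 ± 0.750 to 60.1 ± 2.83 CPM (± SD, n = 3 each), and its log2 fold change was 0.30 (SE 0.08, 95% interval 0.12 to 0.48, edgeR adjusted p = 0.0298). This call was close to the threshold: it was lost in each of the 6 fits without 1 library (adjusted p 0.056 to 0.117) and in limma on log2 FPKM (adjusted p 0.138), while the direction was kept.

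ACVR1 (gene ID 90), the other type I receptor of the list, lies on the minus strand of chromosome 2 at 157736446 to 157876330 and is the longest member, at 140 kb with 11 exons. Its level was 38.9, 39.8 and 39.9 CPM after siControl, against 37.3, 33.5 and 29.4 CPM after siPSF. The controls were nearly equal, the siPSF libraries were spread, and the groups did not overlap. With means of 39.5 ± 0.50 and 33.4 ± 3.93 CPM (SD, n = 3 each) the log2 fold change was -0.24 (SE 0.10, 95% interval -0.46 to -0.02), which did not pass (edgeR adjusted p = 0.128) and did not pass in any alternative.

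The FPKM ratio of the type I receptors, ACVR1 over ACVR1B, was 1.07, 1.11 and 1.15 after siControl and 0.959, 0.769 and 0.655 after siPSF. ACVR1 exceeded ACVR1B in every control library and was below it in every siPSF library, with mean ratios of 1.11 ± 0.0436 and 0.794 ± 0.154 (SD, n = 3 each). The ratio was not tested.

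ACVR2A (gene ID 92, plus strand of chromosome 2, 147844517 to 147930822, 86.3 kb) and ACVR2B (gene ID 93, plus strand of chromosome 3, 38453890 to 38493142, 39.3 kb) encode the type II receptors that first bind the ligand. ACVR2A gave 15.5, 14.1 and 16.9 CPM after siControl, against 17.4, 15.6 and 23.3 CPM after siPSF. ACVR2B gave 62.6, 63.8 and 75.5 CPM and 59.7, 59.1 and 80.0 CPM. For both genes the groups overlapped and the third replicate was the highest library of each group. Neither passed the test: ACVR2A had a log2 fold change of 0.27 (SE 0.14, 95% interval -0.04 to 0.58, edgeR adjusted p = 0.222) and ACVR2B of -0.02 (SE 0.12, 95% interval -0.29 to 0.25, adjusted p = 0.932). The ACVR2B value changed sign with the library left out, between -0.18 and 0.07.

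Within libraries the type II receptors were less variable relative to each other. The FPKM ratio of ACVR2A to ACVR2B was 0.562, 0.498 and 0.507 after siControl and 0.652, 0.585 and 0.659 after siPSF. The ratios of the groups did not overlap, with means of 0.522 ± 0.0347 and 0.632 ± 0.0407 (SD, n = 3 each), and no test was made. In both groups ACVR2B was the more abundant type II receptor transcript. The summed FPKM of the 4 receptors was 29.8 ± 1.70 after siControl and 29.3 ± 1.14 after siPSF (SD, n = 3 each), with overlapping groups. The amount of receptor transcript in all thus showed no separation between the groups, while the subunit sum did.

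**Figure D2:**
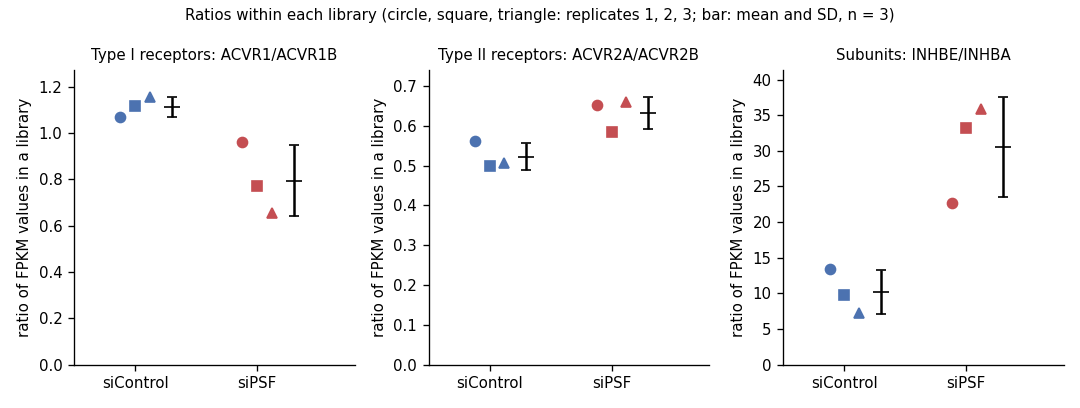
Ratios of FPKM within each library for ACVR1 over ACVR1B, ACVR2A over ACVR2B and INHBE over INHBA (axes starting at 0), with a symbol for each replicate and a bar for the group mean and SD (n = 3). The mean of ACVR1 over ACVR1B is 1.11 after siControl and 0.794 after siPSF.

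SMAD7 (gene ID 4092), the intracellular inhibitor, lies on the minus strand of chromosome 18 at 48919853 to 48950965 (31.1 kb, 4 exons). It gave 17.4, 16.9 and 19.7 CPM after siControl, against 23.4, 22.9 and 22.8 CPM after siPSF. Every siPSF library was above every control. SMAD7 rose from 18.0 ± 1.52 to 23.0 ± 0.343 CPM (± SD, n = 3 each), by a log2 fold change of 0.35 (SE 0.10, 95% interval 0.14 to 0.57, edgeR adjusted p = 0.0308). It was called in only 2 of the 6 fits without 1 library, those without the third replicate of either group, and the adjusted p over the 6 ran from 0.0248 to 0.15. In limma on log2 FPKM it was not called (adjusted p = 0.0744).

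FSTL3 (gene ID 10272, plus strand of chromosome 19, 676392 to 683385) was the follistatin-type inhibitor with a row. Its level was 17.5, 19.6 and 16.3 CPM after siControl, against 18.2, 18.1 and 19.8 CPM after siPSF. The groups overlapped, and the log2 fold change of 0.07 (SE 0.10, 95% interval -0.16 to 0.30) did not pass (edgeR adjusted p = 0.696). The interval leaves room for a change of up to 0.30 on the log2 scale, as large as the value of ACVR1B.

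**Figure D3:**
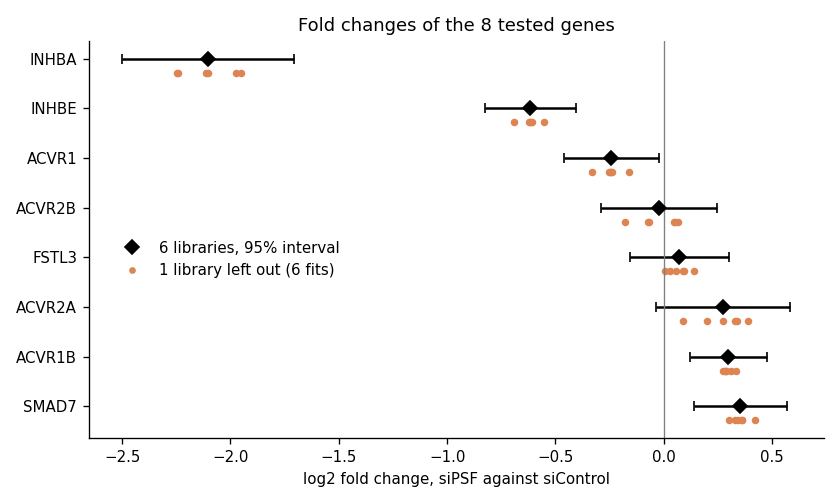
Log2 fold change (siPSF over siControl, edgeR) of the 8 members tested, as diamonds with bars for the 95% interval, dots for the 6 fits with 1 library left out and a line at 0. INHBA (-2.10) and INHBE (-0.62) lie to the left, ACVR1B (0.30) and SMAD7 (0.35) to the right, and the intervals of ACVR2A, ACVR2B and FSTL3 span 0.

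Per length, INHBE was the most abundant member in control cells and INHBA the least abundant of those tested. The siControl means in FPKM (± SD, n = 3) were 15.5 ± 1.19 for INHBE, 11.4 ± 0.597 for ACVR1, 10.3 ± 0.156 for ACVR1B and 6.61 ± 0.507 for FSTL3. Below these came SMAD7 at 5.46 ± 0.583, ACVR2B at 5.33 ± 0.700, ACVR2A at 2.78 ± 0.319 and INHBA at 1.61 ± 0.366 FPKM. In this order only SMAD7 and ACVR2B had overlapping values. INHBA exceeded 42.7% of the genes of the table in mean siControl FPKM, and INHBE exceeded 79.5%.

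After siPSF the order at the top changed. ACVR1B led with 11.8 ± 0.540 FPKM, followed by INHBE at 9.61 ± 0.0575 and ACVR1 at 9.34 ± 1.37 (SD, n = 3 each), whose values overlapped. SMAD7, at 6.70 ± 0.0905 FPKM, stood beside FSTL3 at 6.58 ± 0.314, again with overlap. INHBA was again the lowest of the tested members, at 0.327 ± 0.0845 FPKM.

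**Figure D4:**
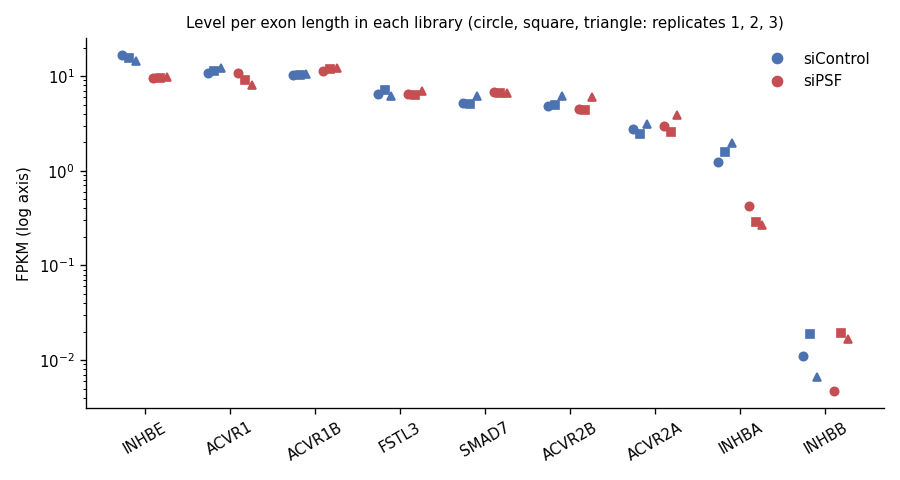
FPKM (log axis) of the 9 members with a row in the 3 siControl and 3 siPSF libraries, 1 symbol for each replicate, ordered by the siControl mean. INHBE heads the siControl order at 15.5 FPKM and ACVR1B the siPSF order at 11.8 FPKM.

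Transcripts that overlap or adjoin members were checked, because whether reads were counted by strand is not given in the sources used here. INHBA-AS1 is an antisense gene on the plus strand of chromosome 7 (41693919 to 41779378) whose span overlaps that of INHBA by 11951 bases in the GENCODE annotation, with 0 bases shared between exons of the canonical transcripts. It gave 0.222, 0.262 and 0.333 CPM after siControl, against 0.126, 0.104 and 0.203 CPM after siPSF, from 11 to 42 reads a library. All siPSF values were below the controls, as for INHBA, but the log2 fold change of -0.92 (SE 0.37) did not pass (edgeR adjusted p = 0.114). ACVR2B-AS1, whose span shares 931 bases with ACVR2B and no canonical exon, had overlapping groups and a log2 fold change of 0.11 (SE 0.20, adjusted p = 0.762).

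INHBC, which encodes the beta C chain, is the neighbour of INHBE on the same strand and ends 3244 bases before it in RefSeq and 260 bases before it in GENCODE. It was counted at 0.469, 0.172 and 0.461 CPM after siControl, against 0.236, 0.123 and 0.284 CPM after siPSF, which overlapped. The log2 fold change was -0.77 (SE 0.43) and did not pass (edgeR adjusted p = 0.257). INHBC was far less abundant than INHBE in both groups, at 0.106 ± 0.0498 and 0.0577 ± 0.0216 FPKM (SD, n = 3 each).

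The genes with the pattern most like INHBA were sought over the 6 libraries, by the Euclidean distance between log2 CPM values centred on each gene's own mean. Over the 14678 genes that averaged 1 CPM or more, the nearest were UNC5D (distance 0.439), TNR (0.472), PARD3B (0.523), UNC5C (0.530) and NEGR1 (0.561), against a median distance of 2.66. UNC5D and UNC5C encode netrin receptors, TNR an extracellular matrix protein of brain, PARD3B a cell polarity protein and NEGR1 a neuronal adhesion protein. Their log2 fold changes lay between -1.98 and -1.78, which their choice by likeness to INHBA fixes. All 5 genes are between 386 and 1075 kb long, whereas INHBA spans 20.3 kb. Of the 10 members, 1 (ACVR1) reached 100 kb.

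The wider pathway was read from 5 lists of 102 genes in all, of which 80 were tested. After siPSF 6 of the 80 were called higher, where 6.65% of all genes tested were, and 10 were called lower, where 8.27% of all genes were. These all-gene shares also stand behind the count of each list, and no list was tested as a whole. The median log2 fold change was -0.04, beside 0.01 over all genes tested.

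Among other ligands of the TGF-beta superfamily, 1 of 20 tested was called higher and none lower, against 6.65% and 8.27% of all genes. It was AMH, the anti-Mullerian hormone, at 47.7, 44.6 and 37.0 CPM after siControl, against 70.6, 65.9 and 69.7 CPM after siPSF (log2 fold change 0.67, SE 0.10, edgeR adjusted p = 0.00116). Among other receptors and co-receptors, 1 of 11 was called higher and 1 lower, against the same all-gene shares. BMPR2, a type II receptor for BMPs that can also pair with ACVR1, gave 38.6, 46.9 and 56.9 CPM after siControl, against 25.3, 23.2 and 29.6 CPM after siPSF (log2 fold change -0.87, SE 0.14, adjusted p = 0.00159). RGMA, a BMP co-receptor, was called higher (0.56, SE 0.15, adjusted p = 0.0245), a call kept in 2 of the 6 fits without 1 library.

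Among 16 SMAD proteins and their nuclear partners, 2 were called higher and 2 lower, where 6.65% and 8.27% of all genes were. SMAD6, which inhibits BMP type I receptors much as SMAD7 inhibits those of activin, gave 9.44, 7.82 and 7.79 CPM after siControl, against 24.8, 24.8 and 18.4 CPM after siPSF. The log2 fold change of 1.44 (SE 0.14, edgeR adjusted p = 6.55e-05) was above the 0.35 of SMAD7. The inhibitory SMADs were both higher, but of the 6 fits without 1 library SMAD6 was called in all and SMAD7 in only 2. SMAD9, a BMP-activated SMAD, rose by 0.41 (SE 0.11, adjusted p = 0.0262), called in 2 of the 6 fits without 1 library. The lower genes were TGIF1, a corepressor of SMAD2 (-0.72, SE 0.13, adjusted p = 0.00349), and SMURF1, a ubiquitin ligase for SMADs and receptors (-0.43, SE 0.09, adjusted p = 0.00602). The activin-activated SMADs had log2 fold changes of -0.10 for SMAD2 and -0.04 for SMAD3, and SMAD4 of 0.10, none of which passed (adjusted p = 0.518, 0.849 and 0.528).

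Among 19 antagonists, latency proteins and processing enzymes, 7 were called lower, where 8.27% of all genes were, and none higher, with a median log2 fold change of -0.46. Without SPOCK1 the count was 6 of 18 and the median -0.43. The follistatin-like genes FSTL5 (-1.23, SE 0.11), FSTL4 (-2.14, SE 0.36) and FSTL1 (-0.71, SE 0.18) were among them (edgeR adjusted p = 4.99e-05, 0.00218 and 0.0189). FSTL1 lost its call without the third siControl replicate (adjusted p = 0.0756). The proteoglycan gene SPOCK1, which the study picked on these libraries and which is therefore no independent evidence of the list's direction, had a log2 fold change of -1.34. The BMP antagonist NBL1 (-0.50), the latency protein LTBP1 (-0.76) and the proprotein convertase PCSK6 (-0.46) completed the 7 (edgeR adjusted p = 0.00837, 0.00846 and 0.0261), and PCSK6 kept its call in 3 of the 6 fits without 1 library. FSTL5 spans 780 kb, FSTL4 646 kb, SPOCK1 524 kb and LTBP1 453 kb, and the part of gene length in these values was not tested.

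Among 19 genes known to respond to activin, TGF-beta or BMP, 3 were called higher, where 6.65% of all genes were, and none lower. They were SMAD6, ID2 and ATOH8. ID1 (log2 fold change 0.18, adjusted p = 0.374), ID3 (0.28, adjusted p = 0.145) and BAMBI (0.06, adjusted p = 0.818) of the same list were not called in edgeR. ID2, an inhibitor of basic helix-loop-helix factors, gave 136, 88.5 and 106 CPM after siControl, against 217, 183 and 150 CPM after siPSF (log2 fold change 0.74, SE 0.16, edgeR adjusted p = 0.00814). Without the third siControl replicate ID2 lost its call (adjusted p = 0.060). ATOH8 had overlapping groups (log2 fold change 0.79, SE 0.20, adjusted p = 0.0204) and was called in 2 of the 6 fits without 1 library.

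**Figure D5:**
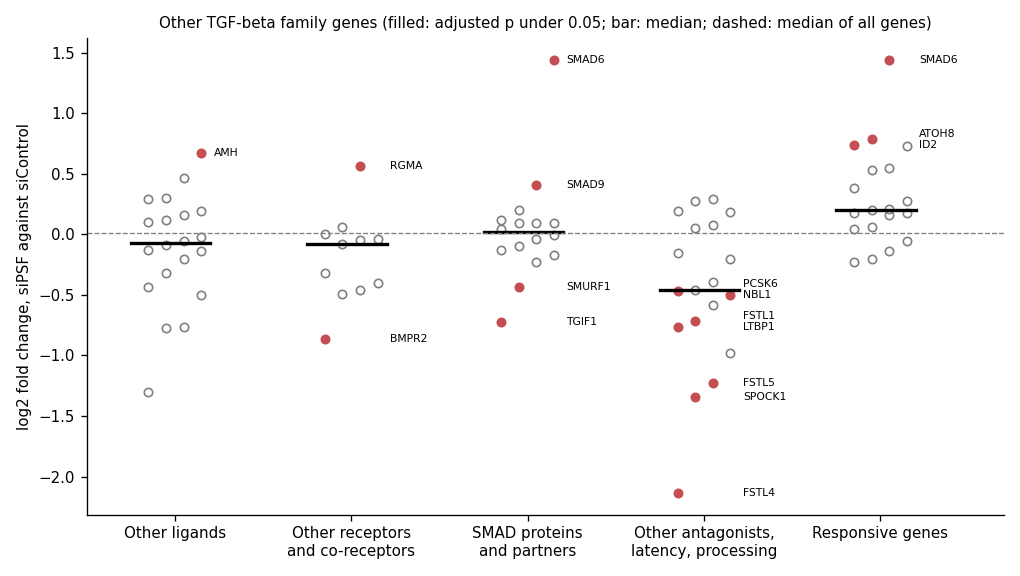
Log2 fold change (siPSF over siControl, edgeR) of each tested gene in the 5 pathway lists, 1 point a gene, with called genes filled and named, a bar at each list's median and a dashed line at the median of all genes. The list of antagonists, latency proteins and processing enzymes lies lowest, with a median of -0.46 and 7 of 19 genes called lower.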

How the data were processed

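RNA was sequenced from SH-SY5Y cells, 3 siControl and 3 siPSF libraries. The authors deposited 1 table of read counts and FPKM for each gene and library. The paper's methods name poly(A) selection, 50-base paired reads, removal of ribosomal reads with Bowtie 2, TopHat on hg38 and counting on RefSeq mRNAs, whereas the submitters' processing notes name Trimmomatic, HISAT2 2.1.0, StringTie 2.1.3b and GRCh38, and which of them made the table was not settled here. Counts with StringTie are read coverage turned back into reads, so a read shared by similar or overlapping genes may have been split.

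The counts were tested as deposited with edgeR 4.0.16 in R 4.3.3 (filterByExpr, TMM, glmQLFit and glmQLFTest on group alone) over all 19694 genes kept of 21301, with Benjamini-Hochberg adjustment and calls at 0.05. No count in the table is below 1, so genes without reads in a library may have no row. Intervals are 95% from the quasi-likelihood F and its degrees of freedom, and precision was limited by a common biological coefficient of variation of 12.6% with 3 libraries a group. The paper calls the 3 samples of a group biological triplicates, and the labels number them without saying more. The scripts were tested on simulated data. Alternatives were DESeq2 size factors, no count filter, DESeq2 1.42.0, limma 3.58.1 on log2(FPKM + 0.5) and log2(FPKM + 0.1) for genes with a mean of at least 0.5 FPKM, a replicate block and leaving out each library. Coordinates, gene lengths and promoters are from RefSeq (GRCh38.p14) and exons from GENCODE.

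The members and the pathway and marker lists were chosen with earlier results of these data known. Genes were named by rule: every member, SFPQ, antisense genes of members, INHBC, the 3 called genes with the smallest p in each pathway list and the 5 genes nearest to INHBA in profile. SMAD9, FSTL1, NBL1, LTBP1, PCSK6, SMAD2, SMAD3, SMAD4, ID1, ID3 and BAMBI, as well as the ligands of the closing section, were named after their values were seen. A marker gene and a responsive gene of the lists are not reported here.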

Additional observations from a re-analysis of the deposited data

How the results depend on the processing

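The number of genes called over the whole table was 2938 and ran from 1500, without the second siControl replicate, to 3140 with 1 library left out, and it was 1754 without the third siControl replicate. The split of 1310 higher and 1628 lower genes became 717 and 1700 in limma on log2(FPKM + 0.5), where the median of all genes was -0.06. Of the members, 4 were called under every other count model and 2 in that limma fit. With 1 library left out 2 to 3 were called: 2 without the first or second replicate of either group and 3 without the third. These member counts include INHBA, which was picked for its fall in these libraries. INHBE kept its direction and its call in all 12 alternatives, and INHBA its direction. On log2(FPKM + 0.5) the INHBA value was -1.34, against -1.99 with a pseudocount of 0.1. The pathway lists had 16 calls, and 12 to 23 in the alternatives. The direction turned for ACVR2B (-0.18 to 0.07 with 1 library left out, 0.0656 without the third siControl replicate, 0.0473 and 0.0537 without the first and second siPSF replicates), FSTL3 (-0.0037 and -0.0038 in limma with pseudocounts of 0.5 and 0.1) and GDF11 (-0.0073 without the third siPSF replicate, otherwise up to 0.15). The cause of these changes was not tested. Same-numbered replicates did not deviate together (correlations of -0.022 to 0.056), and a replicate block gave 3029 calls, 2641 of them shared with the fit without it, and 4 members. DESeq2 gave 3643 calls and no adjusted p for 764 genes. INHBB, at 3 to 9 reads a library, could not be tested.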

Other observations

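Other ligands that act through the activin receptors or beside them were also counted. INHA, whose alpha chain turns a beta chain into inhibin, was counted at 1.04, 1.33 and 1.12 CPM after siControl, against 1.60 CPM in each siPSF library. The groups did not overlap, and the log2 fold change of 0.46 (SE 0.19) did not pass (edgeR adjusted p = 0.117). GDF11, which binds ACVR2A and ACVR2B, gave 34.3, 39.7 and 41.1 CPM after siControl, against 37.9, 38.5 and 47.0 CPM after siPSF, with a log2 fold change of 0.10 (SE 0.11, adjusted p = 0.592). GDF15, a distant member of the superfamily that signals through another receptor and is induced in stressed cells, gave 321, 274 and 223 CPM after siControl, against 387, 418 and 197 CPM after siPSF. Its siPSF replicate 3 was below every control, and its log2 fold change of 0.29 (SE 0.22) did not pass (adjusted p = 0.408). With 1 library left out the log2 fold change ran from 0.10 to 0.56. GDF15 was called in 1 of the 12 alternatives, the fit without siPSF replicate 3, which is the library that stood below the controls.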
